A study of Mus musculus with 12 samples.

Results

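The genes described here are 10 genes of mouse liver that carry, act in or respond to growth hormone signalling: Cux2, Bcl6, Hsd3b5, Hsd3b4, Slco1a1, Hao2, Cyp2b9, Stat5b, Ghr and Igf1. They were selected on known control by growth hormone pulses and on the measured differences between HESKOL and wild-type livers on these arrays. They were found as every non-control probe that carries the gene's name or an older synonym, which gave 21 probes for the 10 genes, out of 27824 genes or unnamed probes on the array. Cux2 is named Cutl2 on the array for one probe and 1700051K22Rik for the other, and Hao2 is named Hao3.

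The study measured total liver RNA on 12 one-colour arrays, 1 for each of 12 mice (male, C57BL/6, 8 to 10 weeks old), with 3 mice in each of 4 groups. The groups were HESKOL mice 6 hours after an intraperitoneal injection of 1 mg/kg dexamethasone, untreated HESKOL mice, wild-type mice 6 hours after the same injection, and untreated wild-type mice. Dexamethasone is a synthetic glucocorticoid, and every mouse, untreated ones included, had been adrenalectomized, so that its own glucocorticoids were removed. The labels call the HESKOL animals knockout mice and the series title names Hes1, a repressor of transcription that Notch signalling induces, but the labels do not spell out HESKOL, the cells in which the gene was deleted or the promoter used. Whether untreated mice received vehicle is not described.

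Growth hormone is released in pulses in male mice and more continuously in females. It binds the growth hormone receptor (Ghr) on hepatocytes, which activates the kinase JAK2 and then the transcription factor STAT5b, and STAT5b drives Igf1, which encodes the main circulating growth factor. Pulsed signalling sustains the male pattern of liver genes, such as Hsd3b5 and Slco1a1, whereas continuous exposure raises female-pattern genes, among them Cux2, which encodes a repressor of male-pattern genes in female liver. Bcl6 encodes a repressor that is more abundant in male liver and that growth hormone and STAT5 hold down.

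The sequences measured for the genes with the widest spread are shown first, as the 60-base probes of the array design (mm7 build, 5′ to 3′). Both Cux2 probes are given because they read the same gene at separate sites on the minus strand of chromosome 5, and the Hsd3b5 and Hsd3b4 probes because these are close relatives whose signals ran together.
Cux2, probe that stands for the gene, chr5:121094700-121094759, minus strand: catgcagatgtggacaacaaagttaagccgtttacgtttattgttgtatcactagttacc
Cux2, other probe, chr5:121129731-121129790, minus strand: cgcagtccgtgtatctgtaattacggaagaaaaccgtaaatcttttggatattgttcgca
Hsd3b5, chr3:98414360-98414419, minus strand: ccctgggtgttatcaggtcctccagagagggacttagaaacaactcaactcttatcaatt
Hsd3b4, placed by the design on unplaced sequence of that build: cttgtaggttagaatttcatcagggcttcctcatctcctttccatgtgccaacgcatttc
The Hsd3b5 and Hsd3b4 probes share no run longer than 6 bases and match at 21 of 60 positions in their best ungapped alignment. This compares the probes with each other only. It cannot show whether either probe binds the RNA of the other gene, which was not tested. In the RefSeq annotation of GRCm38.p6, Hsd3b4, Hsd3b5 and Hao2 lie within 396 kb of one another on chromosome 3. RefSeq also gives Hsd3b4 as a synonym of Gm10681, so that the identity of the gene under the Hsd3b4 probe is less certain than the others. Whether the probes lie in exons or untranslated regions was not looked up, since no genome of the mm7 build was used here.

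Bcl6 was the only 1 of the 10 genes with the STAT5-type motif TTCNNNGAA in the 300-base windows around its annotated starts. Its 2 windows are printed, with the motif in capitals, because growth hormone acts on transcription through STAT5b (RefSeq, GRCm38.p6, minus strand, 5′ to 3′).
Bcl6, window around the inner start, chr16:23981234-23981533: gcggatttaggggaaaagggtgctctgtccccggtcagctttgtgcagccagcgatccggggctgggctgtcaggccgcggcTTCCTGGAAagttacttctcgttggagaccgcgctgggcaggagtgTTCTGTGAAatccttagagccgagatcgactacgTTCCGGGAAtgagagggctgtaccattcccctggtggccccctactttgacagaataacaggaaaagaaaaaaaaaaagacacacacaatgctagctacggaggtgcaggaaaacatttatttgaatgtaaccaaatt
Bcl6, window around the outer start, chr16:23988803-23989102: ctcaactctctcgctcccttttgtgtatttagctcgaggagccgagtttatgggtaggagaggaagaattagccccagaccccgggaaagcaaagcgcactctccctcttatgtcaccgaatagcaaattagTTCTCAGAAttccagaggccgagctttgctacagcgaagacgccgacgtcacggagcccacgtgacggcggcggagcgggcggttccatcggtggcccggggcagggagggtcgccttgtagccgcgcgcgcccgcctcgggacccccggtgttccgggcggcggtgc
The inner window holds 3 matches and the outer window 1 match. The motif reads the same on both strands, and 8.298% of 32851 such windows over all genes hold it. The N box CACNAG, a sequence that Hes proteins bind, occurred on either strand in 7 of the 15 windows of the 10 genes, a share near the 42.48% of all windows. These matches describe the letters of the windows only.

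Each value given below is the log2 of a signal after scaling to its array's 75th percentile. A difference is that of 2 group means on this scale, with the standard error (SE) from a limma fit to all 12 arrays. A probe counts as measured where the software called it well above background. Between 62.2% and 72.3% of probes were well above background per array, and the signal at the 75th percentile was 897 to 1614 units. Testing required that some group had the probe well above background in all 3 of its mice, which 18708 genes met. All 10 genes entered the test, Cux2 through the 2 HESKOL groups alone and Hao2 through the untreated HESKOL group alone. Hes1 itself read -3.08, -3.02 and -3.85 in treated HESKOL livers and -2.46, -2.40 and -3.09 in untreated HESKOL livers. In wild-type livers it read -1.16, -2.57 and -2.92 after treatment and -1.49, -1.22 and -1.90 without it. Its probe was well above background in every mouse, and the difference of -1.12 (SE 0.43) between untreated HESKOL and wild-type livers did not pass the test (limma, adjusted p = 1.00), nor did that of -1.10 (SE 0.43) after dexamethasone (adjusted p = 0.249). Whether this probe lies in the deleted part is not given in the sources used here.

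The arrays lay on 3 slides, and no slide held treated and untreated mice of one genotype. Slide 1 held the 3 untreated wild-type mice and untreated HESKOL mouse 1, slide 2 held untreated HESKOL mice 2 and 3 and treated wild-type mice 1 and 2, and slide 3 held treated wild-type mouse 3 and the 3 treated HESKOL mice. Treated wild-type mouse 1 stood apart most from its group, with a root mean square deviation of 0.995 over all genes, against 0.463 to 0.798 for the other arrays. Chosen after their values were seen, the Y-linked genes Ddx3y, Eif2s3y and Kdm5d were well above background on 12 of 12 arrays and 3 of the 4 Xist probes on 0 arrays. The remaining Xist probe was well above background on 7 arrays, at -7.49 to -5.73. Uty, also Y-linked, was well above background on 12 arrays by some probes and on 0 arrays by another. Hepatocyte markers fitted the label liver, with 9 of 9 measured genes well above background on every array. In such bulk tissue, fewer cells of a type and less RNA per cell cannot be told apart.

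**Figure D1:**
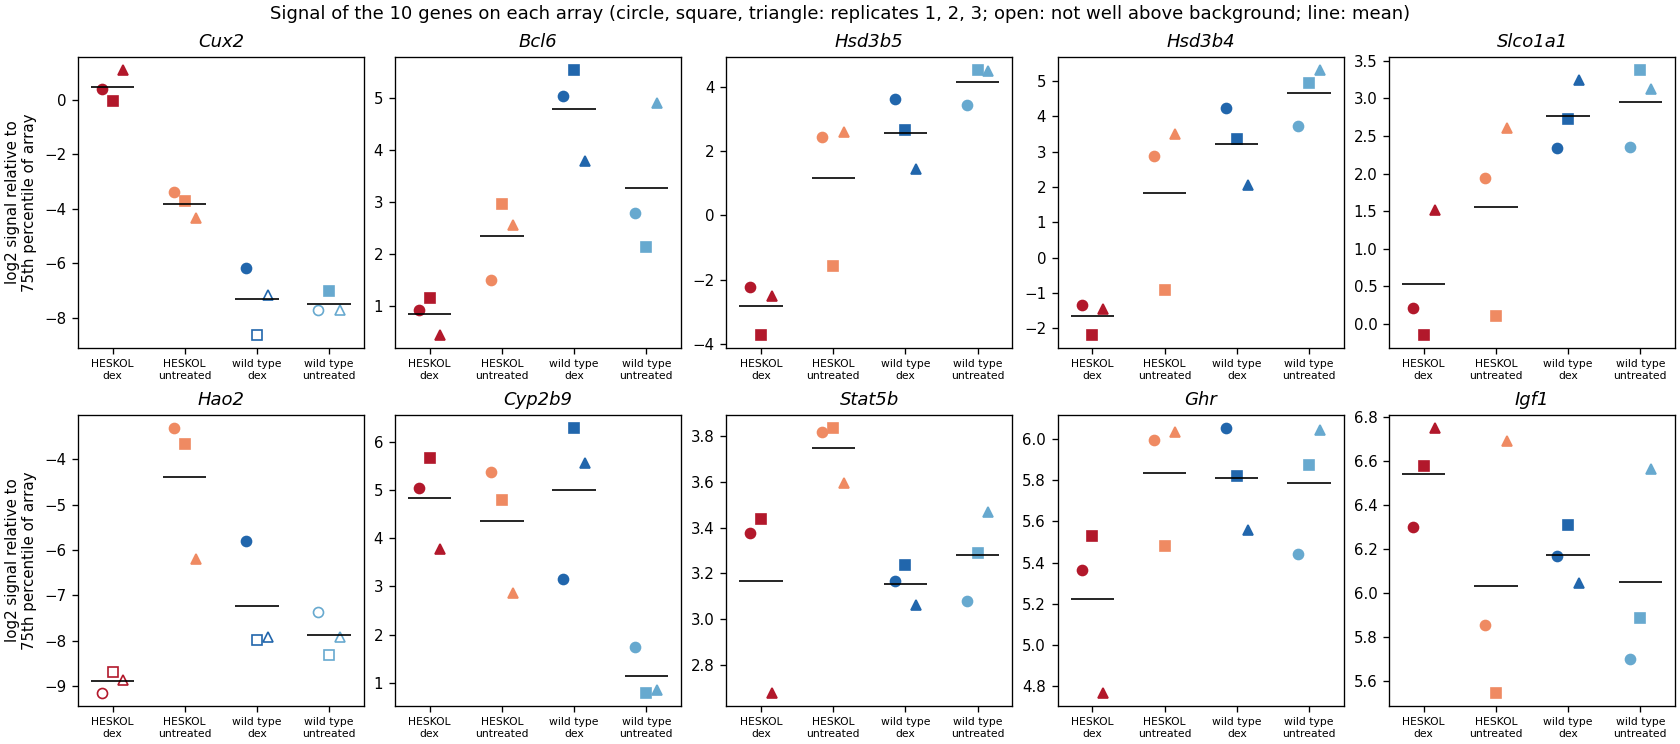
Log2 signal of each of the 10 genes relative to the 75th percentile of its array, with 1 point per mouse (circle, square and triangle for replicates 1, 2 and 3; open where the probe was not well above background) and a line at the group mean. Cux2 lies between -0.057 and 1.09 in the 3 treated HESKOL livers and below -3 in every other liver, and each panel has its own vertical scale.

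Among the genes that carry the hormone signal, no treatment difference of Ghr, Stat5b or Igf1 passed the test in the main fit. That fit used the probe that stands for the gene, and the Ghr probes disagreed. Ghr read 5.36, 5.53 and 4.77 in treated HESKOL livers, 5.99, 5.48 and 6.03 in untreated HESKOL livers, 6.05, 5.82 and 5.56 in treated wild-type livers, and 5.44, 5.87 and 6.04 in untreated wild-type livers. The treated HESKOL livers were the lowest group, and the gaps between the other 3 group means, 0.027 and 0.022, were under the pooled standard deviation (SD) of 0.321. With dexamethasone Ghr differed by -0.61 (SE 0.27) in HESKOL livers (adjusted p = 0.190) and by 0.02 (SE 0.27) in wild-type livers (adjusted p = 0.985), neither past the threshold of 0.05. The 5 Ghr probes did not give one value. Their treatment differences in HESKOL livers ran from -2.58 to -0.61, and those in wild-type livers from -1.87 to 0.02. The mean of all 5 probes fell by 1.43 in HESKOL livers (adjusted p = 0.0333) and differed by -0.68 in wild-type livers. With quantile scaling the probe that stands for the gene also passed in HESKOL livers (-0.82, limma, adjusted p = 0.0443). The HESKOL call thus turns on the probe and the scaling used.

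Stat5b read 3.38, 3.44 and 2.68 in treated HESKOL livers, 3.82, 3.83 and 3.59 in untreated HESKOL livers, 3.17, 3.24 and 3.06 in treated wild-type livers, and 3.08, 3.29 and 3.47 in untreated wild-type livers. The untreated HESKOL livers lay above the other 3 groups, whose neighbouring means were 0.11 and 0.011 apart, under the pooled SD of 0.245. Treatment differences were -0.58 (SE 0.23) in HESKOL livers (adjusted p = 0.146) and -0.13 (SE 0.23) in wild-type livers (adjusted p = 0.885). Igf1 read 6.30, 6.58 and 6.75 in treated HESKOL livers, 5.85, 5.55 and 6.69 in untreated HESKOL livers, 6.16, 6.31 and 6.04 in treated wild-type livers, and 5.70, 5.88 and 6.56 in untreated wild-type livers. The groups overlapped, and neighbouring means in their order were at most 0.37 apart, under the pooled SD of 0.395. Its treatment differences were 0.51 (SE 0.31) in HESKOL livers (adjusted p = 0.345) and 0.12 (SE 0.31) in wild-type livers (adjusted p = 0.923). HESKOL and wild-type livers differed by -0.02 (SE 0.31) in Igf1 untreated and by 0.37 (SE 0.31) after dexamethasone. A fainter Igf1 probe gave 1.07 between the treated genotypes and 0.87 with treatment in HESKOL livers, and the remaining probe 0.36 and 0.60. For Stat5b the fainter probes gave -0.54 and 0.10 between the treated genotypes, against 0.01 for the main probe. With treatment in HESKOL livers they gave -0.43 and 0.07.

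Cux2 (GRCm38.p6, chr5:121857962-122050415) was bright in treated HESKOL livers and near background in wild-type livers. It read 0.40, -0.057 and 1.09 in treated HESKOL livers, -3.39, -3.70 and -4.34 in untreated HESKOL livers, -6.17, -8.61 and -7.14 in treated wild-type livers, and -7.72, -7.00 and -7.70 in untreated wild-type livers. Both HESKOL groups were well above background on 3 of 3 arrays, and each wild-type group on 1 of 3 (treated mouse 1 and untreated mouse 2). The groups stood in the order treated HESKOL, untreated HESKOL, treated wild type, untreated wild type, and the 2 wild-type means were 0.165 apart, under the pooled SD of 0.748. The genotype differences, which helped to choose the gene and are given without a test, were 3.66 (SE 0.54) untreated and 7.79 (SE 0.54) after dexamethasone, both set against wild-type signals that were mostly not above background. With dexamethasone Cux2 rose by 4.29 (SE 0.54), 19.5-fold, in HESKOL livers (limma, adjusted p = 0.00232), and was higher in 3 of 3 treated livers than in any untreated one. In wild-type livers the difference was 0.17 (SE 0.54, adjusted p = 0.942). The treatment comparisons were not the ones that chose the genes, but they use the same arrays.

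The second Cux2 probe gave 3.57 untreated, 8.09 after dexamethasone and 4.56 with treatment in HESKOL livers. Within slide 1, untreated HESKOL mouse 1 exceeded the 3 untreated wild-type mice by 4.09, and within slide 3 the 3 treated HESKOL mice exceeded treated wild-type mouse 3 by 7.62. With slide as a fixed block the treatment difference in HESKOL livers was 4.25 and no longer passed (adjusted p = 0.586). Under another background correction (normexp) the genotype differences were smaller, 1.04 untreated and 3.66 after dexamethasone.

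**Figure D2:**
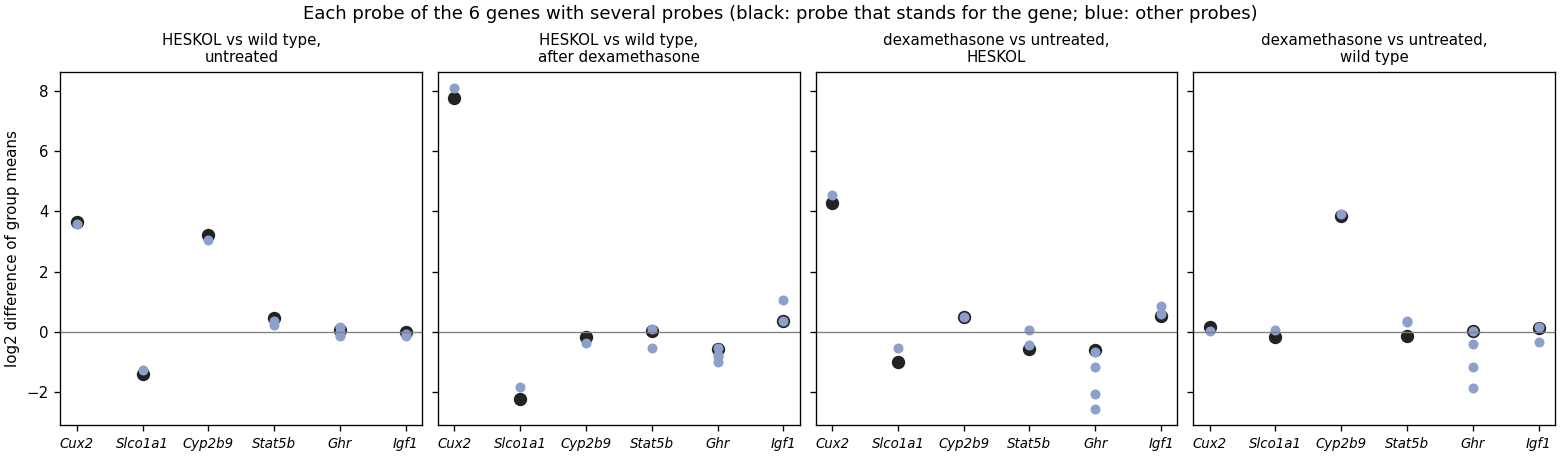
Log2 difference of group means for every probe of the 6 genes with several probes, in the 4 comparisons (black for the probe that stands for the gene, blue for the others). Both Cux2 probes gave close values in each comparison, whereas the Ghr probes spread from -2.58 to -0.61 with dexamethasone in HESKOL livers.

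Bcl6 (GRCm38.p6, chr16:23965050-23988866) ran opposite to Cux2 in the HESKOL livers. It read 0.91, 1.15 and 0.45 in treated HESKOL livers, 1.50, 2.96 and 2.56 in untreated HESKOL livers, 5.04, 5.53 and 3.77 in treated wild-type livers, and 2.79, 2.12 and 4.89 in untreated wild-type livers. The treated HESKOL livers lay below every other liver, and the untreated genotypes overlapped. Its genotype differences were -0.93 (SE 0.68) untreated and -3.94 (SE 0.68) after dexamethasone, and -1.76 and -2.94 within slides 1 and 3. The untreated value moved with single mice, to -0.12 without untreated wild-type mouse 3, -1.50 without untreated wild-type mouse 2 and -0.51 without untreated HESKOL mouse 1. Neither treatment difference passed the test: it was -1.50 (SE 0.68) in HESKOL livers (adjusted p = 0.197) and 1.51 (SE 0.68) in wild-type livers (adjusted p = 0.418). Over the 12 arrays the correlation of Bcl6 with Cux2 was -0.832, a description of arrays that share the 4 groups.

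The male-pattern genes Hsd3b5 and Slco1a1, and the Hsd3b4 probe, had their lowest group mean in treated HESKOL livers. Hsd3b5, a steroid-metabolizing enzyme of male mouse liver, read -2.23, -3.72 and -2.51 in treated HESKOL livers, 2.43, -1.58 and 2.60 in untreated HESKOL livers, 3.63, 2.65 and 1.44 in treated wild-type livers, and 3.44, 4.53 and 4.49 in untreated wild-type livers. Untreated HESKOL mouse 2 lay far below the other untreated HESKOL mice. Even so, no untreated HESKOL liver reached the lowest untreated wild-type liver. The genotype differences were -3.00 (SE 0.98) untreated, -1.64 without HESKOL mouse 2 and -1.72 within slide 1, and -5.39 (SE 0.98) after dexamethasone, -4.26 within slide 3.

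With dexamethasone Hsd3b5 fell by 3.97 (SE 0.98), 15.7-fold, in HESKOL livers (limma, adjusted p = 0.0342), and all 3 treated livers were below all 3 untreated ones. This call was lost without untreated HESKOL mouse 1 (-3.33, adjusted p = 0.126), untreated HESKOL mouse 3 (-3.24, 0.0958) or untreated wild-type mouse 2 (-3.97, 0.0527). Leaving out treated HESKOL mouse 1 (-4.26, 0.0617), mouse 2 (-3.52, 0.120) or mouse 3 (-4.13, 0.0837) also lost it. So did a fit of the compared groups alone (-3.97, 0.0874) and slide as a fixed block (-1.64, 0.892). In wild-type livers the difference was -1.58 (SE 0.98, adjusted p = 0.570).

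Hsd3b4, of the same 3-beta-hydroxysteroid dehydrogenase family, read -1.34, -2.17 and -1.44 in treated HESKOL livers, 2.88, -0.91 and 3.50 in untreated HESKOL livers, 4.24, 3.36 and 2.04 in treated wild-type livers, and 3.72, 4.93 and 5.30 in untreated wild-type livers. It followed Hsd3b5 from mouse to mouse, with a correlation of 0.996 over the 12 arrays. Whether the Hsd3b5 and Hsd3b4 probes read separate RNAs was not tested. The genotype differences of Hsd3b4 were -2.82 (SE 0.98) untreated, -1.46 without untreated HESKOL mouse 2, and -4.87 (SE 0.98) after dexamethasone. The treatment difference in HESKOL livers was -3.48 (SE 0.98, adjusted p = 0.0535), just outside the threshold. It passed in 6 alternatives, with -4.84 (adjusted p = 0.00935) without untreated HESKOL mouse 2. With slide as a fixed block it was smaller, -1.19 (adjusted p = 0.909). In wild-type livers the treatment difference in the main fit was -1.43 (SE 0.98, adjusted p = 0.609). Named after their values were seen, the relatives Hsd3b1, Hsd3b2, Hsd3b3 and Hsd3b6 had differences between -0.50 and -0.35 in untreated HESKOL against untreated wild-type livers. With dexamethasone Hsd3b6 fell by 1.63 (SE 0.41) in HESKOL livers (adjusted p = 0.0357).

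Slco1a1, an organic anion transporter of the hepatocyte membrane, read 0.22, -0.14 and 1.52 in treated HESKOL livers, 1.94, 0.10 and 2.61 in untreated HESKOL livers, 2.34, 2.72 and 3.24 in treated wild-type livers, and 2.35, 3.37 and 3.12 in untreated wild-type livers. The same HESKOL mouse 2 was the lowest of the untreated mice, and the genotypes overlapped untreated but not after dexamethasone. The genotype differences were -1.40 (SE 0.61) untreated, -0.67 without HESKOL mouse 2, and -2.23 (SE 0.61) after dexamethasone, -2.71 within slide 3. Treatment differences were -1.02 (SE 0.61) in HESKOL livers (adjusted p = 0.333) and -0.18 (SE 0.61) in wild-type livers (adjusted p = 0.942).

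Cyp2b9, a cytochrome P450 that is more abundant in female than in male mouse liver, was low in the untreated wild-type livers alone. It read 5.04, 5.66 and 3.78 in treated HESKOL livers, 5.37, 4.80 and 2.87 in untreated HESKOL livers, 3.15, 6.28 and 5.55 in treated wild-type livers, and 1.74, 0.80 and 0.86 in untreated wild-type livers. The first 3 groups overlapped, and the gaps between their means, 0.17 and 0.48, were under the pooled SD of 1.18. The genotype differences were 3.21 (SE 0.83) untreated, 4.24 within slide 1, and -0.17 (SE 0.83) after dexamethasone. The treatment difference in wild-type livers was 3.86 (SE 0.83, adjusted p = 0.114) and did not pass, although no treated liver overlapped an untreated one. Without treated wild-type mouse 1 it was 4.78 (SE 0.73) and passed (adjusted p = 0.00854). In HESKOL livers it was 0.48 (SE 0.83, adjusted p = 0.763). Both Cyp2b9 probes gave these patterns, but the accessions of the main probe include one of Cyp2b10, a near relative, and the probes may share signal. Named after their values were seen, Cyp2b10 and Cyp2b13 differed by 4.10 and 4.08 with dexamethasone in wild-type livers. Between the untreated genotypes they differed by 1.61 and 2.74, and after dexamethasone by -0.22 and -0.20. None of these passed. Another Cyp2b13 probe gave 0.29, 4.89 and 1.49 in these comparisons.

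Hao2 encodes a peroxisomal hydroxyacid oxidase and was measured on all arrays of the untreated HESKOL group alone. It read -9.14, -8.68 and -8.86 in treated HESKOL livers, -3.31, -3.66 and -6.19 in untreated HESKOL livers, -5.80, -7.99 and -7.92 in treated wild-type livers, and -7.36, -8.32 and -7.91 in untreated wild-type livers. Outside untreated HESKOL livers it was well above background in treated wild-type mouse 1 only. It was at least 5.58-fold higher in untreated HESKOL than in untreated wild-type livers, a bound for which each dim array was given its own signal or that of the faintest measured probe, whichever was higher. With dexamethasone it was at least 6.11-fold lower in HESKOL livers, where the measured difference was -4.50 (SE 0.73). This is a description, since the gene entered the test only through the untreated HESKOL group, where it was high. Both bounds hold only for the background removal of the deposited signal. Under normexp background correction the log2 differences were smaller than the bounds. They were 0.82 between the untreated genotypes and -0.89 with dexamethasone in HESKOL livers. With slide as a fixed block the treatment difference in HESKOL livers was -2.94. In wild-type livers, where both groups were mostly not above background, no fold is given.

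With dexamethasone in HESKOL livers Cux2 passed the test as higher and Hsd3b5 as lower. Hao2 was also past the threshold, which makes 3 of the 10 genes, but it is not counted as support because of how it entered the test. Of all genes tested, 7.83% passed there, 3.63% higher and 4.2% lower. In wild-type livers 0 of the 10 passed in the limma fit, against 0.198% of all genes, while 2 had an unadjusted p under 0.05, against 11.8% of all genes. Without treated wild-type mouse 1 these counts were 4 in HESKOL livers, against 14.9% of all genes in that fit, and 1 in wild-type livers, against 5.98%. With slide as a fixed block both were 0, as were the counts over all genes. The treated and untreated groups did not overlap for 6 of the 10 genes in HESKOL livers, against 34.3% of all genes, and for 1 of 10 in wild-type livers, against 12.1%. All the wild-type counts include Cux2 and Hao2, whose signals were mostly not above background in wild-type livers. For Cux2 and Hao2 they cannot show whether wild-type livers responded to dexamethasone. The HESKOL and wild-type groups did not overlap for 6 of 10 genes untreated (6.36% of all genes) and for 7 of 10 after dexamethasone (18.2%). The genotype difference chose the genes, so these 2 counts follow from the choice and are a description, not support. Hao2 is in both, and in the 6 of 10 with dexamethasone in HESKOL livers. After dexamethasone its probe was well above background on 0 of 3 HESKOL and 1 of 3 wild-type arrays. The difference of the treatment effects, HESKOL minus wild type, was 4.12 (SE 0.76) for Cux2 and -5.13 (SE 1.04) for Hao2, and is also given as a description.

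**Figure D3:**
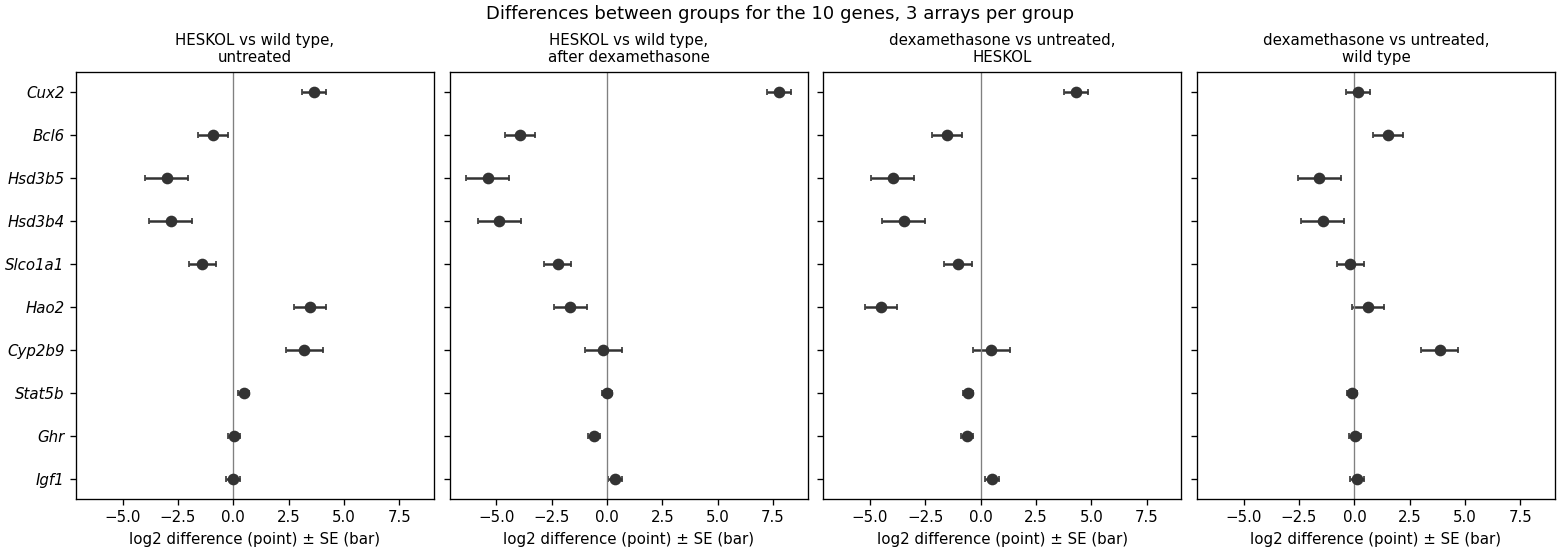
Log2 differences (points) with their standard errors (bars) for the 10 genes in the 4 comparisons, each of 3 against 3 mice. Cux2 lies on the positive side in 3 of the comparisons, at 3.66, 7.79 and 4.29, and near 0 with dexamethasone in wild-type livers, while Ghr, Stat5b and Igf1 lie closer to 0 in all 4, at most 0.614 away.

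Markers of Kupffer cells and lymphocytes moved with the same groups. All 8 Kupffer cell markers and all 8 lymphocyte markers had a positive difference in untreated HESKOL against untreated wild-type livers (medians 0.475 and 0.31) and a negative one with dexamethasone in HESKOL livers (medians -0.916 and -1.29), in which 1 gene of each list passed the test. With dexamethasone in wild-type livers 7 of 8 and 8 of 8 differences were negative (medians -0.334 and -0.701), and none passed. Of the 9 hepatocyte markers, 9 had a positive difference with dexamethasone in wild-type livers (median 0.256) and 7 in HESKOL livers (median 0.55). In HESKOL livers 2 hepatocyte markers passed as higher and 1 as lower, and in wild-type livers 0 passed. The summed Kupffer cell level, relative to the 75th percentile of the array, was 63.5 to 171 in treated HESKOL livers, 130 to 269 in untreated HESKOL livers, 76.1 to 178 in treated wild-type livers and 110 to 192 in untreated wild-type livers. The summed lymphocyte level was 0.462 to 0.931, 1.38 to 2.40, 0.37 to 1.75 and 1.11 to 1.57 in the groups in that order. The endothelial and stellate lists, of 7 genes each, had medians of -0.123 and -0.216 with dexamethasone in HESKOL livers and of 0.224 and -0.0074 between the untreated genotypes. Named after their values were seen, the endothelial genes Lyve1 and Kdr passed in opposite directions with dexamethasone in HESKOL livers (2.62 and -1.56, adjusted p = 0.00253 and 0.0258). In wild-type livers 1 endothelial gene passed as higher with dexamethasone, where 0.198% of all genes passed. Bile duct markers were well above background on 12 arrays for 5 of 6 genes, all but Cftr (0 arrays). Their summed level was 5.95 to 20.8 in treated HESKOL livers, 19.1 to 94.2 in untreated HESKOL livers, 13.2 to 53.7 in treated wild-type livers and 14.6 to 71.8 in untreated wild-type livers. Of 6 adipocyte markers Lep was well above background on 0 arrays, Adipoq on 3, and Cfd and Cidea on 12. Cidea, also named after its value was seen, rose by 2.41 (adjusted p = 0.00253) with dexamethasone in HESKOL livers. The part of these cells in the results above was not tested.

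Genes of the wider pathway, none of which is among the 10, were taken from a list of growth hormone signalling genes, a list of male-biased liver genes and a list of female-biased liver genes. The lists were drawn up with earlier results of these data known, so their genotype tests and counts are not independent support. Of the signalling list all 18 genes were tested, and 2 of them, both suppressors of cytokine signalling that damp JAK and STAT activity, were lower in treated HESKOL than in treated wild-type livers, a comparison in which 1.14% of all genes passed (0.695% higher, 0.444% lower). Socs1 read -2.93, -2.86 and -3.23 in treated HESKOL livers, -1.62, -1.45 and -1.46 in untreated HESKOL livers, 5.13, 0.28 and 1.52 in treated wild-type livers, and -1.58, -1.66 and -1.58 in untreated wild-type livers. It was lower by 5.32 (SE 0.89, adjusted p = 0.0235) in treated HESKOL than in treated wild-type livers and by 3.91 (adjusted p = 0.00084) without treated wild-type mouse 1, in which it was highest. The groups ran apart, with treated HESKOL livers below all others and treated wild-type livers above all others. Socs3 read 1.77, 1.33 and 1.76 in treated HESKOL livers, 2.65, 3.23 and 3.24 in untreated HESKOL livers, 7.29, 3.17 and 5.26 in treated wild-type livers, and 2.75, 2.74 and 3.30 in untreated wild-type livers. Its difference after dexamethasone was -3.62 (SE 0.75, adjusted p = 0.0496), and -2.60 (adjusted p = 0.0322) without treated wild-type mouse 1. With slide as a fixed block neither passed (-4.53, adjusted p = 0.287, and -3.64, adjusted p = 0.328).

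With dexamethasone in HESKOL livers, Stat5a, the close relative of STAT5b, and Sirpa, a membrane protein that JAK2 phosphorylates, passed as lower. Stat5a read -0.066, -0.33 and -0.21 in treated HESKOL livers, 1.51, 1.98 and 0.76 in untreated HESKOL livers, 1.22, 0.89 and 0.63 in treated wild-type livers, and 1.25, 1.07 and 0.80 in untreated wild-type livers. The 3 treated HESKOL livers lay below all 9 other livers, and the treatment difference was -1.62 (SE 0.30, adjusted p = 0.0115) in HESKOL livers and -0.13 (SE 0.30, adjusted p = 0.914) in wild-type livers. The difference of these effects, -1.49 (SE 0.42), did not pass (adjusted p = 0.514). Sirpa, which macrophages also express, differed by -2.38 (SE 0.53, adjusted p = 0.0234) in HESKOL livers and by -0.97 (SE 0.53, adjusted p = 0.523) in wild-type livers. Both calls were lost with slide as a fixed block (adjusted p = 0.814 and 0.860).

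The feedback inhibitor Socs2, a direct target of STAT5b, read 4.09, 3.59 and 3.77 in treated HESKOL livers, 2.96, 1.82 and 2.01 in untreated HESKOL livers, 3.32, 0.51 and 3.94 in treated wild-type livers, and 1.20, 2.24 and 1.68 in untreated wild-type livers. The treated HESKOL livers lay above the untreated ones, and the difference of 1.56 (SE 0.71) did not pass (adjusted p = 0.206). In wild-type livers it was 0.88 (SE 0.71, adjusted p = 0.674). Jak2 differed by -0.93 (SE 0.37, adjusted p = 0.143) with dexamethasone in HESKOL livers and by 0.31 (SE 0.37, adjusted p = 0.800) in wild-type livers. Igfals, which encodes the subunit that keeps IGF-1 in the circulation, differed by -1.16 (SE 0.40, adjusted p = 0.0999) and -1.40 (SE 0.40, adjusted p = 0.217) in HESKOL and wild-type livers in the same comparisons, and both passed without treated wild-type mouse 1 (-1.16, adjusted p = 0.0337, and -1.83, adjusted p = 0.0182). Cish, another STAT5 target, differed by 0.16 (SE 0.88) and -0.42 (SE 0.88), with adjusted p of 0.931 and 0.902. With slide as a fixed block Igfals differed by 0.15 in HESKOL livers (limma, adjusted p = 0.970) and by -0.46 in wild-type livers. In HESKOL livers the same block gave -0.12 for Socs2, -1.02 for Cish and -0.38 for Jak2, and none of these values passed. Between the untreated genotypes Jak2, Stat5a, Socs2, Cish and Igfals differed by 0.13, 0.37, 0.55, 0.08 and -0.26, and after dexamethasone by -1.12, -1.12, 1.23, 0.66 and -0.02, none past the threshold.

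Most male-biased genes had lower means, and most female-biased genes higher means, in HESKOL than in wild-type livers, but single genes rarely passed. Because of how the lists were drawn up, these counts are a description. Between the untreated genotypes 17 of 18 male-biased genes had a negative difference (median -0.303, against 0.04 over all genes) and 17 of 20 female-biased genes a positive one (median 0.287). After dexamethasone the counts were again 17 of 18 (median -0.76, against 0.04 over all genes) and 17 of 20 (median 0.836). No gene of the 3 lists passed in the untreated comparison in limma, in which 0% of all genes passed, and 3 male-biased, 5 female-biased and 0 signalling genes had an unadjusted p under 0.05, against 1.58% of all genes. Without untreated HESKOL mouse 2 the male-biased count between the untreated genotypes was 11 of 18 (median -0.10), and without untreated HESKOL mouse 3 the female-biased count was 12 of 20. With slide as a fixed block these counts were 12 of 18 and 15 of 20. After dexamethasone the male-biased count was 13 of 18 in the deposited table and 14 of 18 with normexp or with slide as a fixed block, and its median was -0.42 without treated HESKOL mouse 2. The female-biased count after dexamethasone was 15 to 18 of 20 over all alternatives.

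**Figure D4:**
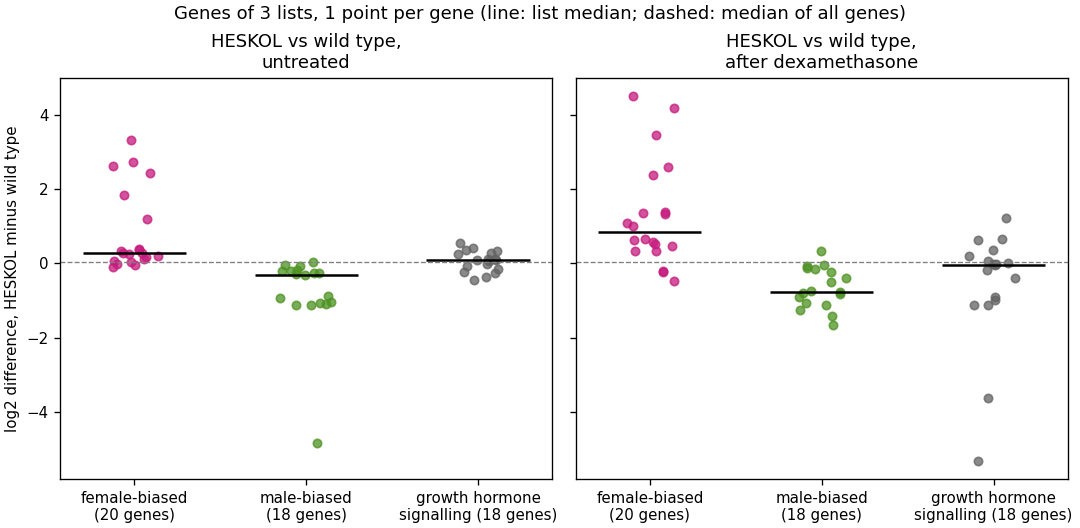
Log2 difference, HESKOL minus wild type, for each gene of the 3 pathway lists, untreated and after dexamethasone (line at the median of the list, dashed line at the median of all genes). The female-biased genes lie mostly above the dashed line and the male-biased genes mostly below it, with medians of 0.836 and -0.76 after dexamethasone.

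After dexamethasone 1 female-biased gene passed, Nipal1, a member of a family of magnesium transporters. It read 1.73, 1.87 and 1.38 in treated HESKOL livers, -0.44, -0.087 and -1.58 in untreated HESKOL livers, -1.41, -3.85 and -2.36 in treated wild-type livers, and -4.71, -2.06 and -5.28 in untreated wild-type livers. Treated HESKOL livers lay above all others, and the difference to treated wild-type livers was 4.20 (SE 0.80, adjusted p = 0.0375), or 4.02 with slide as a fixed block, which did not pass (adjusted p = 0.311). In both untreated and treated mice the HESKOL groups did not overlap the wild-type ones.

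With dexamethasone in HESKOL livers 3 of 20 female-biased genes rose, against 3.63% of all genes, and 1 of 18 male-biased genes fell, near the 4.2% of all genes. The male-biased list as a whole had 12 of 18 positive differences (median 0.094). Fmo2, which encodes a flavin monooxygenase, read 0.48, 1.31 and 2.12 in treated HESKOL livers, against -1.13, -2.32 and -1.22 in untreated HESKOL livers. The groups did not overlap, and Fmo2 rose by 2.86 (SE 0.63, adjusted p = 0.0220) and Tox, which encodes a nuclear protein of the high-mobility-group box family, by 1.85 (SE 0.40, adjusted p = 0.0216). The male-biased gene Nudt7, a peroxisomal coenzyme A hydrolase, fell by 1.65 (SE 0.37, adjusted p = 0.0243) to 5.50, 6.17 and 4.66 in treated HESKOL livers, against 7.18, 6.62 and 7.47 in untreated HESKOL livers. In wild-type livers 0 genes of the 3 lists passed in limma with dexamethasone, while 4 of 18 signalling, 1 of 18 male-biased and 1 of 20 female-biased genes had an unadjusted p under 0.05, against 11.8% of all genes. The difference of the treatment effects also passed for 0 listed genes, against 0.016% of all genes. Without treated wild-type mouse 1 the listed genes past the threshold were 11 in HESKOL livers and 5 in wild-type livers, in a fit that called 14.9% and 5.98% of all genes, and 1 for the difference of the effects, Socs1 (-4.00, adjusted p = 0.0159).

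**Figure D5:**
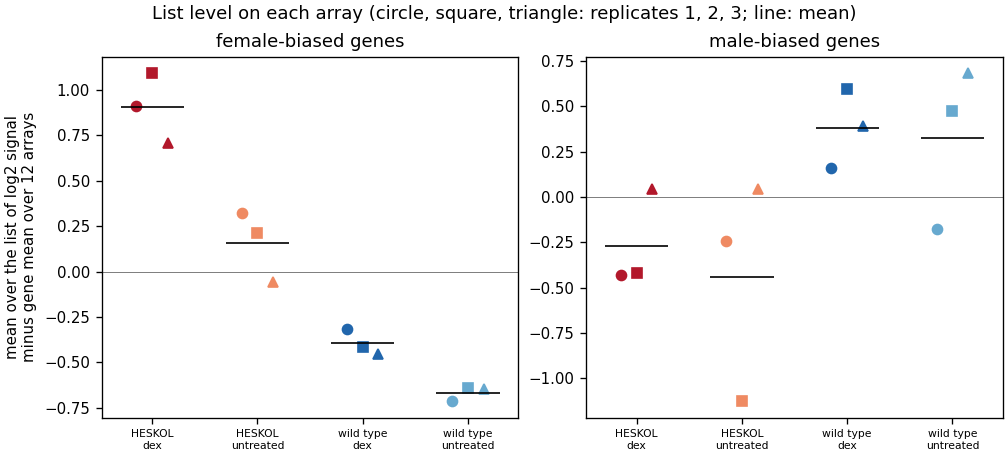
Mean over the female-biased and the male-biased list of the log2 signal minus each gene's mean over the 12 arrays, with 1 point per mouse (circle, square and triangle for replicates 1, 2 and 3) and a line at the group mean. The female-biased mean runs from 0.707 to 1.09 in treated HESKOL livers and from -0.714 to -0.641 in untreated wild-type livers, and untreated HESKOL mouse 2 has the lowest male-biased mean, -1.13.

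The genes whose levels followed Cux2 most closely over the 12 arrays, by Pearson correlation among 14569 other named genes, were Cables1 (0.954), Nipal1 (0.927), Slc16a5 (0.920), Slco1a4 (0.919) and Cdc42ep5 (0.919). Cables1, which encodes an adaptor of cyclin-dependent kinases, averaged 1.98 in treated HESKOL livers, 1.16 in untreated HESKOL livers, -0.27 in treated wild-type livers and -0.19 in untreated wild-type livers, the same order of genotypes as Cux2. Slc16a5 is a monocarboxylate transporter and Slco1a4 an organic anion transporter of the same subfamily as Slco1a1. Among the most opposite genes were Eipr1 (-0.930), Abca2 (-0.928), Cdh15 (-0.919) and Punc (-0.918). These correlations are taken over arrays that fall into 4 groups on 3 slides and describe likeness only.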

How the data were processed

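Groups were taken from the sample titles, with replicates as separate mice. The deposited array files hold intensity values made by the authors with Agilent Feature Extraction 9.5.3.1 on a design drawn on mm7, per the file headers (9.5 per the submitters' processing notes). The processed signal had background removed already. The deposited series table holds the same intensity values, unscaled and not centred, with column medians of 53.7 to 112. The log2 values were computed here from the deposited processed signal, as log2 minus the 75th percentile of the array. Control and outlier spots were left out, spots of a probe were averaged, and the probe with the highest mean stood for its gene.

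Of 41174 probes, 22937 were named through RefSeq accessions, 6653 by symbol, 3108 by synonym and 21 as the 10 genes, while 1461 kept their array name and 6994 stayed unnamed. Group means were fitted by lmFit and eBayes of limma 3.58.1 (R 4.3.3) to all 12 arrays, with 8 residual and 3.12 prior degrees of freedom. P-values were adjusted over the 18708 genes tested after Benjamini and Hochberg, and 0.05 was the threshold. The fit was tested on simulated data. The genes and lists were chosen with earlier results of these data known, so genotype differences of the 10 genes carry no test. For the same reason genotype tests of listed genes are not independent support. Named beside them were listed genes past the threshold, up to 6 per list and direction, with Socs2, Cish, Jak2, Stat5a and Igfals in every comparison, the 5 genes most like and 5 most opposite to Cux2, and Hes1; some genes that this rule names are not reported here. The male-biased list had 18 of 21 genes on the array and the female-biased list 20 of 22. Precision is limited by having 3 arrays a group.

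Same-numbered mice of different groups did not deviate together (correlations of -0.401 to 0.623, median -0.0075), so replicate numbers were not used as pairs. Alternatives were normexp with an offset of 50, quantile and median scaling, the deposited table, no filter, the mean of all probes, a slide block (fixed, or random), a replicate block, a trend on intensity, fits on the compared groups alone and each array left out. The direction counts of the male- and female-biased lists under these alternatives were added after seeing the data.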

Additional observations from a re-analysis of the deposited data

How the results depend on the processing

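The results were recomputed under 23 alternatives, 12 of which left out 1 array. Cux2 with dexamethasone in HESKOL livers passed under each of them except the fixed slide block. The 3 calls among the 10 genes in HESKOL livers, Hao2 included, became 0 with slide as a fixed block and 2 to 4 with 1 array left out. In wild-type livers the count of 0 stayed 0 to 1 with 1 array left out. Listed pathway genes past the threshold between treated HESKOL and treated wild-type livers numbered 3, and became 1 without a filter on dim probes, 5 with the mean of all probes, 0 with slide as a fixed block, 0 in a fit of the compared groups alone and 0 to 4 with 1 array left out. The replicate number as a block gave 1 for that count. It changed no call among the 10 genes. With dexamethasone in HESKOL livers the listed genes numbered 6, against 0 with slide as a fixed block and 0 to 11 with 1 array left out. The count in wild-type livers was 0 to 5, that between untreated genotypes 0 to 0, and that for the difference of treatment effects 0 to 1, with 1 array left out. With 1 array left out, male-biased genes lower in HESKOL livers numbered 11 to 18 untreated and 15 to 17 treated, and female-biased genes higher numbered 12 to 18 untreated and 16 to 18 treated.

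Among the treatment differences of the genes described here, reversals touched only values that passed no test. All but 1 of these were in wild-type livers. Ghr became -0.076 with normexp, -0.11 with quantile scaling, -0.30 in the deposited table, -0.68 with the mean of all probes, -0.15 without untreated wild-type mouse 1 and -0.099 without treated wild-type mouse 1. Igf1 became -0.025, -0.037, -0.20 and -0.018 in the first 4 of these, -0.077 with slide as a fixed block and -0.0504 without untreated wild-type mouse 1. Cux2 became -0.16 in the deposited table and -0.40 without treated wild-type mouse 1. Stat5b became 0.18 with the mean of all probes and 0.024 with the slide block, which also gave 0.90 for Hsd3b5, 0.73 for Hsd3b4 and 0.17 for Slco1a1. Slco1a1 was 0.030 without untreated wild-type mouse 2 and 0.032 without treated wild-type mouse 1, and Hao2 -0.091 without that treated mouse. In HESKOL livers Cyp2b9 became -0.26 without untreated HESKOL mouse 3. With 1 array left out, the highest wild-type values were 0.82 for Cux2, 1.00 for Hao2, 0.15 for Ghr and 0.38 for Igf1, the lowest for Slco1a1 was -0.48, and the highest for Cyp2b9 in HESKOL livers was 1.00. Genotype differences, which carry no test, also changed sign over the alternatives. Between the untreated genotypes Ghr ran from -0.12 to 0.23 and Igf1 from -0.35 to 0.24. After dexamethasone Stat5b ran from -0.14 to 0.25 and Cyp2b9 from -1.09 to 0.47. The cause of these moves was not tested.

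Hao2 and, in wild-type livers, Cux2 lay close to background, where the difference depends on how background was removed. With normexp the difference of treatment effects was 2.62 for Cux2 and -1.82 for Hao2. No slide held treated and untreated mice of one genotype, so the slide block leaves little information on treatment.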
